A study of Mus musculus with 4 samples.

Results

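The 36 genes described here encode 26 integrin subunits and 10 laminin chains of the mouse. They were chosen by name, as rows of the deposited count table whose Ensembl gene IDs map to these symbols. All 36 were found among the 55487 genes of the table. The RNA came from C57 mice at postnatal day 30. Cells were sorted from lower incisors, the tissue is labelled dental pulp, and polyadenylated transcripts were sequenced. There were 2 control libraries with the genotype Ptipf/f and 2 knockout libraries with the genotype Ptipf/f;Sp7-cre. Both groups carried floxed alleles of Ptip, whose gene symbol is Paxip1 and whose product is a subunit of histone H3 lysine 4 methyltransferase complexes. The knockouts alone carried Cre, under control of Sp7, a transcription factor gene of the osteoblast and odontoblast lineages, so loss of Ptip and presence of Cre cannot be told apart. Sorting kept cells negative for CD45, Ter119 and Tie2, which mark leukocytes, erythroid cells and endothelial cells, and used no positive marker. No label ties a library to an animal of its own, so p-values measure only the spread between these libraries, which may be technical.

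Integrins are receptors made of an alpha and a beta subunit that tie the extracellular matrix, or proteins on other cells, to the actin cytoskeleton. The pairing sets the ligand: some dimers bind collagens, some laminins, some the RGD motif of fibronectin and vitronectin, and a separate group with the beta2 or beta7 subunit serves leukocytes. Laminins are trimers of an alpha, a beta and a gamma chain that form the sheet of basement membranes. In the tooth they lie under the dental epithelium and around vessels, nerves and smooth muscle. The trimer with the chains of Lama3 and Lamb3 anchors epithelia, including the enamel-forming ameloblasts, through the integrin made by Itga6 and Itgb4.

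The libraries held 15154246 to 19142757 counts, and 3 counts corresponded to 0.153 to 0.208 CPM (counts scaled to a library of 1000000, with edgeR's TMM factors), which covers counting error only. Paxip1, the targeted gene, stood at 28.2 and 44.2 CPM in controls 1 and 2 and at 5.68 and 3.97 CPM in knockouts 1 and 2 (log2 fold change -2.91, SE 0.48; adjusted p = 0.150 by edgeR's quasi-likelihood test). The counts cover all exons, so exons outside the deleted part can contribute. Genes of other cell types were present despite the sort. Ambn, an enamel matrix gene of ameloblasts, had 18132 to 52468 CPM, and Ptprc, the gene of CD45, had 140 and 144 CPM in the controls and 39.1 and 9.23 CPM in the knockouts. Mesenchyme genes were present too, with Col1a1 at 14408 to 38578 CPM.

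Across the integrin and laminin genes, most that differed between the groups were lower in the knockouts. Of the 36 members, 34 passed the filter on low counts, and Itgae and Itgax, a pair of leukocyte alpha subunits, did not. In 15 of the 34 both knockouts lay below both controls, in 3 both lay above, and in 16 the groups overlapped. Over all 17128 genes tested, 24.9% had both knockouts below and 25.8% had both above. The 3 higher members were Lamc3, Lama1 and Itgb1. The median log2 fold change of the knockout over the control was -0.71 over the 34 members and 0.00 over all genes tested. No member passed edgeR's quasi-likelihood test at a Benjamini-Hochberg adjusted p of 0.05, in either direction (0 of 34, with adjusted p-values from 0.161 to 0.958), as was so for every one of the 17128 genes tested (0% higher and 0% lower). At an unadjusted p under 0.05, 11 members were lower and 1 was higher, where 9.89% and 7.32% of all genes tested were. DESeq2 called 5 members lower (Itga4, Itga9, Itgal, Itgb2 and Lamb3) and 1 higher (Lamc3), beside 5.18% and 2.47% of the genes to which it gave an adjusted p.

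**Figure D1:**
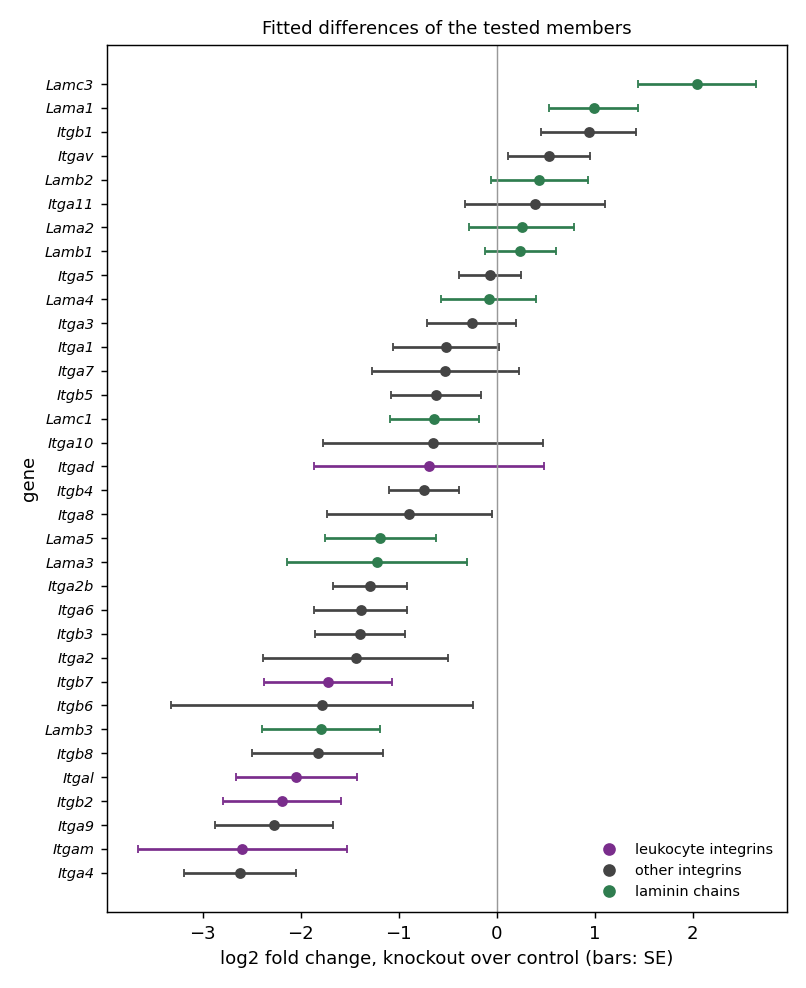
Fitted log2 fold change of the knockout over the control (horizontal axis) for the 34 tested members (vertical axis, in order of the value), with points for the estimate and bars for 1 SE. Lamc3 stands highest at 2.04 and Itga4 lowest at -2.62, and the 5 tested leukocyte integrins all lie left of 0.

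Most leukocyte integrins had lower levels in the knockouts, without passing edgeR's test. Their 7 genes encode the beta2 subunit (Itgb2, CD18), its alpha partners (Itgal, Itgam, Itgax and Itgad), the beta7 subunit (Itgb7) and its partner of mucosal lymphocytes (Itgae). Of the 5 tested, 4 had both knockouts below both controls and 0 had both above, where 24.9% of all genes tested had both below, and the median log2 fold change was -2.04. Itgb2, on chromosome 10 from 77530252 to 77565708 on the plus strand, stood at 74.7 and 30.1 CPM in controls 1 and 2 and at 15.7 and 7.21 CPM in knockouts 1 and 2. Control 1 had the highest level and knockout 2 the lowest, and the groups did not overlap. The fitted log2 fold change was -2.19 (SE 0.60), a 4.57-fold lower level that did not pass edgeR's test (adjusted p = 0.174) and passed in DESeq2 (adjusted p = 0.00510). Leaving out control 1 gave -1.44, leaving out control 2 gave -2.76 and leaving out knockout 1 gave -2.86. Itgal, the alpha subunit of LFA-1, which lymphocytes use to bind ICAM proteins, was at 26.3 and 9.97 CPM in the controls and at 4.76 and 4.03 CPM in the knockouts. Its log2 fold change was -2.04 (SE 0.62, adjusted p = 0.191 in edgeR and 0.0269 in DESeq2), which was -1.22 without control 1 and -2.63 without control 2. Itgb7 had 28.4 and 13.8 CPM in the controls and 3.48 and 9.28 CPM in the knockouts (-1.72, SE 0.65, edgeR adjusted p = 0.248). In this gene knockout 1, not knockout 2, was the lowest library, and the value was -1.13 without control 1 and -2.60 without knockout 2.

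The other alpha subunits of the group had few counts in the knockouts. Itgam, the alpha subunit of the Mac-1 receptor of neutrophils and macrophages, had 96 and 23 counts in controls 1 and 2, against 14 and 11 for the knockouts. On the CPM scale that was 6.66 and 1.46 against 0.716 and 0.615 (-2.59, SE 1.07, edgeR adjusted p = 0.281, and -1.16 without control 1 and -3.36 without control 2). Another annotated gene, Gm49368, shares 68.7% of the exon bases of Itgam, so the counts of Itgam are uncertain in every library. Itgad, the alpha subunit of a macrophage integrin, stood at 2.64 and 0.508 CPM in the controls and at 0.716 and 1.23 CPM in the knockouts, which overlap. The fitted value was -0.69, but 0.90 without control 1. Other annotated genes each share up to 8.6% of the exon bases of Itgad, so part of its counts is uncertain. For Itgae, 8 and 25 counts were found in controls 1 and 2, against 0 and 6 for the knockouts. For Itgax, the marker of dendritic cells, the controls held 1 and 7 counts, against 1 and 0 for the knockouts. No fold change is given for these 2 genes.

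Markers of leukocytes moved with these integrins. Of the 17 leukocyte markers, none was at 0 in any library. In 14 both knockouts lay below both controls and in 0 above, beside 24.9% and 25.8% of all genes tested. The summed level of the markers was 2345 to 7301 CPM in the controls and 357 to 1172 CPM in the knockouts. Without Cd79a and Cd79b it was 1368 to 3551 CPM in the controls and 269 to 610 CPM in the knockouts. As with Itgb2, it was highest in control 1 and lowest in knockout 2. The part of this in the lower integrin levels was not tested. In bulk samples fewer leukocytes and less RNA per leukocyte cannot be told apart. Without control 1 the median log2 fold change of the leukocyte integrins was -1.16, and it was -2.63 without control 2.

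**Figure D2:**
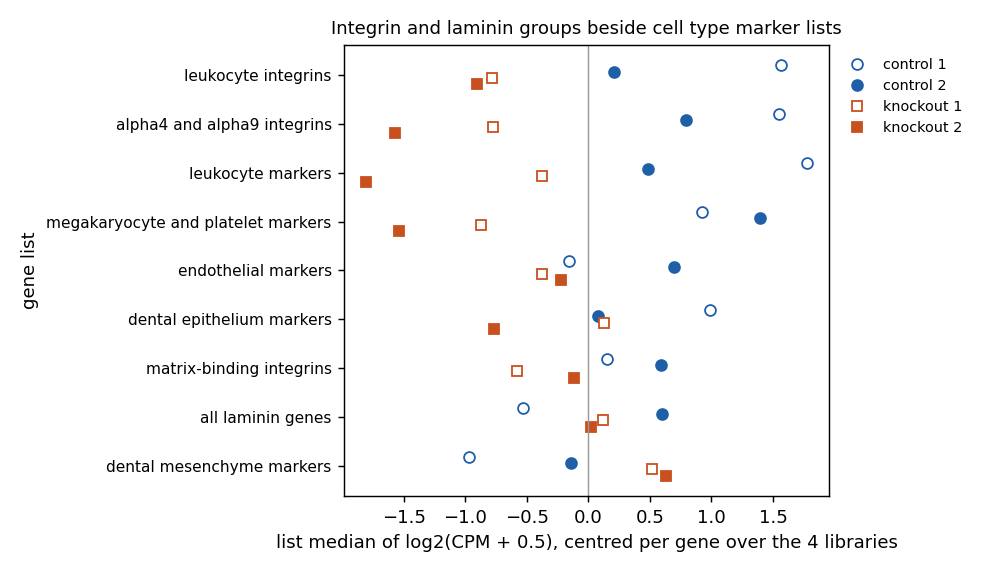
Median of log2(CPM + 0.5) over the genes of each list, centred per gene on its mean over the 4 libraries (horizontal axis, log2 units), for each list (vertical axis), with 1 point per library. The leukocyte integrins lie at 1.57 and 0.21 in controls 1 and 2 and at -0.78 and -0.91 in the knockouts, and the leukocyte markers at 1.78, 0.48, -0.38 and -1.80.

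The alpha4 and alpha9 subunits form a small family of their own that binds VCAM1, fibronectin and tenascin C. Itga4 is known from leukocytes and their progenitors, where it pairs with the beta1 or the beta7 subunit, and Itga9 pairs with beta1 in epithelia, muscle and neutrophils. Both were lower in both knockouts. Itga4, on chromosome 2 from 79255426 to 79333123 on the plus strand, stood at 70.3 and 43.2 CPM in controls 1 and 2 and at 13.3 and 5.09 CPM in knockouts 1 and 2. The lowest control was above the highest knockout by a wide margin. Of all members it had the smallest edgeR p, with a log2 fold change of -2.62 (SE 0.57), a 6.14-fold lower level (adjusted p = 0.161 in edgeR and 0.000213 in DESeq2). It passed without knockout 1 (-3.48, adjusted p = 0.0418) and with none of the other libraries left out. Cerkl, a gene on the opposite strand, shares 8.04% of the exon bases of Itga4, so part of the counts of Itga4 is uncertain. Cerkl had 72 and 83 counts in controls 1 and 2, against 151 and 165 for the knockouts. Itga9 was at 16.6 and 9.14 CPM in the controls and at 2.97 and 2.35 CPM in the knockouts. Its log2 fold change was -2.27 (SE 0.61, adjusted p = 0.174 in edgeR and 0.0144 in DESeq2). The other subunit that binds alpha4, Itgb7, was lower as given above, whereas Itgb1 was higher.

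The upstream sequences of 4 members are shown, so that their letters can be read beside the counts: Itgam, a leukocyte subunit, Itga2b, the platelet subunit, Itga4, the member with the smallest p, and Itgb1, the subunit that was higher. They were chosen after the matches were seen, and Itgam was the only leukocyte subunit of the 3 in the table with a match (Itgax and Itgb7 had 0). Each run holds the 250 bases before the start of the gene in RefSeq (GRCm38.p6), 5′ to 3′ on the strand of the gene. Capitals mark GAGGAA or its reverse complement TTCCTC, the core letters bound by PU.1, a transcription factor of myeloid and B cells.
Itgam (chr7:128062390-128062639, plus strand): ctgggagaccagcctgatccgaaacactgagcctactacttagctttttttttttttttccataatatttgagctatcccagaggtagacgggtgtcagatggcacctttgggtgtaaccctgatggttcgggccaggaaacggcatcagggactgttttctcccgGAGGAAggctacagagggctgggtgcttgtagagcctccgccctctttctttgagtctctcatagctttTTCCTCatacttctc
Itga2b (chr11:102469884-102470133, minus strand): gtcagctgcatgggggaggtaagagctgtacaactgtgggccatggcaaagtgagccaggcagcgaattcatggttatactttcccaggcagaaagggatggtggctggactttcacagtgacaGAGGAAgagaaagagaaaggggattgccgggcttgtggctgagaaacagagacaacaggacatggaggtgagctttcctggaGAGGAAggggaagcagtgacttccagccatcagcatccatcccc
Itga4 (chr2:79255176-79255425, plus strand): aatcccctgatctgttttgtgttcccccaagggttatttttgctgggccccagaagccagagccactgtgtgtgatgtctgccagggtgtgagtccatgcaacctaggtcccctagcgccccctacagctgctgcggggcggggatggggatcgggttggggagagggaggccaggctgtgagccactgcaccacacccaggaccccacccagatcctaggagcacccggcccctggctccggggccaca
Itgb1 (chr8:128685404-128685653, plus strand): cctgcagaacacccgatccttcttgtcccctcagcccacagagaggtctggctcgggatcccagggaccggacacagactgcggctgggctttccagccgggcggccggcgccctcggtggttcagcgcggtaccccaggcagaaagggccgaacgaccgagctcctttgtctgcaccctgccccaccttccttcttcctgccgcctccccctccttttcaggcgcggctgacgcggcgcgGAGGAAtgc
The letters occur 2 times in Itgam, 2 times in Itga2b, 1 time in Itgb1 and 0 times in Itga4. Of the 36 members, 23 had an entry in the RefSeq promoter table, with 26 windows in all. At least 1 match was found in 13 of the 26 windows (50.0%), against 23.3% of the 32851 windows of the whole table. A core of GATA factors, AGATAA or TTATCT, was in 1 of the 26 windows (3.85%), that of Itgax, against 9.99% of all. The 2 motifs share no overlap in these windows. A match is only a match of letters, and genes with overlapping levels, such as Itgav and Itga5, held the PU.1 core too.

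**Figure D3:**
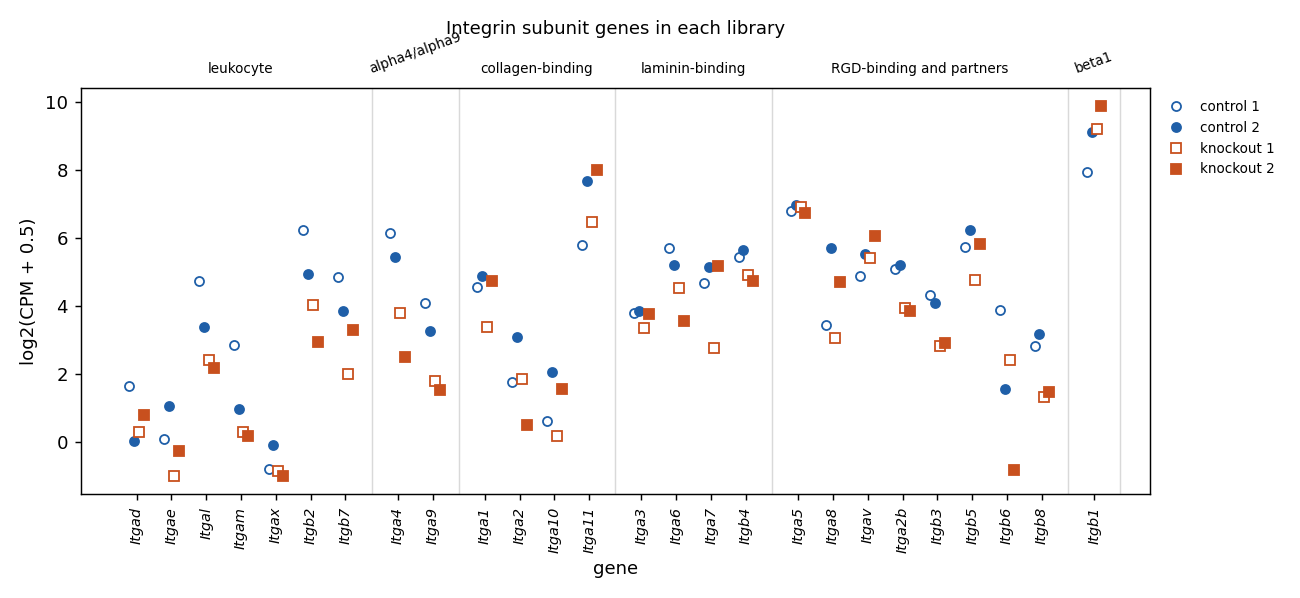
Level of each of the 26 integrin genes (horizontal axis, grouped by family) as log2(CPM + 0.5) (vertical axis), with 1 point per library. Itgb1 is the most abundant, with 243 CPM in control 1 and 938 CPM in knockout 2, and the knockouts lie below the controls for Itga4, Itga9, Itgal and Itgb2.

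Itgb1 encodes the beta1 subunit, the shared partner of the collagen-binding, most laminin-binding and several RGD-binding alpha subunits. It lies on chromosome 8 from 128685654 to 128733200 on the plus strand. Its level was 243 and 553 CPM in controls 1 and 2 and 589 and 938 CPM in knockouts 1 and 2. Both knockouts were above both controls, but knockout 1 exceeded control 2 by little against the gap between the controls. The log2 fold change was 0.94 (SE 0.48), 1.92-fold higher, and did not pass (adjusted p = 0.382 in edgeR and 0.283 in DESeq2). It was 0.44 without control 1, 1.61 without control 2, 1.24 without knockout 1 and 0.57 without knockout 2. Of 10 markers of dental mesenchyme, 6 were higher and 1 was lower in both knockouts, beside 25.8% and 24.9% of all genes tested. The median log2 fold change of the 10 markers was 0.94, and none was at 0. Their summed level, most of it Col1a1, was 18188 to 39927 CPM in the controls and 18200.3 to 27894 CPM in the knockouts, which overlap. DESeq2 called 4 of them higher and 1 lower, beside 2.47% and 5.18% of the genes to which it gave an adjusted p. The part of these markers in Itgb1, Lamc3 and Lama1 was not tested. Across the 19 integrin genes outside the leukocyte group, called matrix-binding here, the median log2 fold change was -0.74. In both knockouts 8 were lower and 1 was higher, beside 24.9% and 25.8% of all genes tested. The 8 lower genes include Itga4, Itga2b and Itgb3, which are known from leukocytes or platelets too. Leaving out control 2 gave a median of -0.39, leaving out knockout 1 gave -0.27, and leaving out knockout 2 gave -1.24. Whether the leukocyte group differs from these 19 was not tested.

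The collagen-binding alpha subunits overlapped between the groups in all 4 cases. Itga11, the collagen receptor of fibroblasts and periodontal ligament cells, stood at 55.2 and 205 CPM in controls 1 and 2 and at 87.9 and 254 CPM in knockouts 1 and 2. The replicate with number 2 was the higher one in both groups. The log2 fold change was 0.39 (SE 0.71, edgeR adjusted p = 0.844), and it was -0.28 without control 1 and -0.57 without knockout 2. Itga1, a subunit of smooth muscle and mesenchymal cells, had 22.9 and 29.1 CPM in the controls and 9.97 and 26.3 CPM in the knockouts (-0.52, and 0.02 without knockout 1). Itga2, known from platelets and epithelia, was at 2.91 and 8.0 CPM against 3.12 and 0.895 CPM (-1.44, SE 0.95, edgeR adjusted p = 0.502). Its value was -0.60 without control 2 and -2.60 without knockout 1. Itga10, the collagen receptor of cartilage, stayed at 3.68 CPM or less in every library, and its value of -0.65 turned to 0.50 without control 2 and to 0.02 without knockout 1. It shares 33.5% of its exon bases with Gm42957, so its counts are uncertain.

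Of the 4 laminin-binding subunits, 3 were lower in both knockouts (Itga3, Itga6 and Itgb4) and 1 overlapped (Itga7), beside 24.9% lower among all genes tested. Itga6 and Itgb4 encode subunits that pair in the hemidesmosomes of epithelia. Itga6 stood at 51.8 and 36.5 CPM in controls 1 and 2 and at 22.5 and 11.2 CPM in knockouts 1 and 2. Its log2 fold change was -1.39 (SE 0.47), a 2.62-fold lower level (adjusted p = 0.216 in edgeR and 0.0766 in DESeq2). It was -1.98 without knockout 1 and -0.97 without knockout 2. Itgb4 was at 42.5 and 49.9 CPM in the controls and at 29.4 and 26.1 CPM in the knockouts (-0.74, SE 0.36, edgeR adjusted p = 0.353). The levels of Itgb4 within each group lay close together, unlike those of Itga6. Itga3, an epithelial laminin receptor, had 13.3 and 13.9 CPM against 9.72 and 13.0 CPM, a small difference (-0.26, SE 0.46). Itga7, the laminin receptor of muscle, was at 25.3 and 35.1 CPM in the controls and at 6.29 and 35.7 CPM in the knockouts. Here knockout 1 alone was low, and the log2 fold change of -0.52 was 0.24 without it. Of the 5 skeletal muscle markers tested, 3 were lower in both knockouts, beside 24.9% of all genes tested. Myh4, Myog, Pax7 and Myod1 were at 0 in at least 1 library. The summed level of all 8 markers was 23.5 to 46.8 CPM in the controls and 7.83 to 12.8 CPM in the knockouts. Their part in Itga7 was not tested.

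Of the 8 RGD-binding subunits and beta partners, 3 were lower in both knockouts (Itga2b, Itgb3 and Itgb8) and 5 overlapped. Of all genes tested, 24.9% were lower in both. Itga2b and Itgb3 encode the 2 subunits of the fibrinogen receptor of platelets. Itga2b stood at 33.8 and 36.5 CPM in the controls and at 14.8 and 13.8 CPM in the knockouts. Its log2 fold change was -1.29 (SE 0.38, adjusted p = 0.186 in edgeR and 0.0704 in DESeq2). Itgb3, which osteoclasts also express together with Itgav, was at 19.4 and 16.5 CPM against 6.60 and 7.05 CPM (-1.40, SE 0.46, edgeR adjusted p = 0.209). In both genes the replicates of a group differed by much less than the groups did. Of the 6 megakaryocyte and platelet markers tested, 5 were lower in both knockouts, beside 24.9% of all genes tested. The summed level of all 8 markers was 41.5 to 70.9 CPM in the controls and 5.54 to 11.7 CPM in the knockouts. Among these, Gp1bb had 1 count in control 2 and 0 elsewhere, and Gp1ba was at 0 in knockout 2. The osteoclast markers differed less: 0 of 4 tested were apart between the groups, beside 24.9% lower and 25.8% higher among all genes tested. The summed level of all 8 was 232 to 346 CPM in the controls and 342 to 388 CPM in the knockouts. Atp6v0d2 and Ocstamp were at 0 in all libraries, and Calcr, Dcstamp and Oscar were at 0 in at least 1. The part of either cell type in Itga2b and Itgb3 was not tested.

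Itgb8, a partner of the alphav subunit in the activation of TGF-beta, was lower too, at 6.59 and 8.45 CPM in the controls and 1.99 and 2.24 CPM in the knockouts (-1.83, SE 0.67, edgeR adjusted p = 0.238). Itgb6, the epithelial partner of alphav, which enamel formation needs, ranged over all libraries, with 14.2 and 2.41 CPM in controls 1 and 2 and 4.76 and 0.0559 CPM in knockouts 1 and 2. Knockout 2 held 1 count of this gene. The SE of its log2 fold change was 1.54 (-1.78, edgeR adjusted p = 0.622), and the value went from -0.07 without control 1 to -7.03 without knockout 1. Itgb5, a vitronectin receptor subunit, overlapped, with 52.6 and 74.0 CPM against 26.5 and 55.9 CPM (-0.62, SE 0.46). Its value was -0.18 without knockout 1 and -1.25 without knockout 2. Itgav itself had 29.0 and 45.9 CPM in the controls and 42.1 and 66.2 CPM in the knockouts (0.53, SE 0.42, edgeR adjusted p = 0.583). Itga5, the main fibronectin receptor subunit, was the steadiest of the family, at 110 and 125 CPM against 119 and 105 CPM. The fitted value was -0.06 (SE 0.32), and 0.02 without knockout 2. Itga8, a receptor subunit for nephronectin in mesenchyme, was at 10.4 and 51.8 CPM against 7.77 and 25.8 CPM (-0.89, and 0.66 without control 2).

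The 10 laminin genes had a median log2 fold change of 0.08. Of these, 3 lay below and 2 above the controls in both knockouts, beside 24.9% below and 25.8% above among all genes tested. The median was -0.50 without control 1 and 0.65 without control 2. Lamc3, a gamma chain gene whose product is known from nerve, skin and retina, had the largest difference upward of all members. It lies on chromosome 2 from 31887291 to 31946539 on the plus strand. Its level was 31.6 and 59.1 CPM in controls 1 and 2 and 92.3 and 282 CPM in knockouts 1 and 2. Both knockouts were above both controls, and knockout 2 held by far the most. The log2 fold change was 2.04 (SE 0.60), 4.12-fold higher (adjusted p = 0.186 in edgeR and 0.00798 in DESeq2). It passed edgeR's test without knockout 1 (2.63, adjusted p = 0.0484) and was 1.02 without knockout 2. Lamc1, the gamma chain of most laminins, was at 31.5 and 67.8 CPM in the controls and at 31.1 and 32.8 CPM in the knockouts (-0.63, SE 0.45), with control 2 alone above the rest and a value of -0.03 without it.

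**Figure D4:**
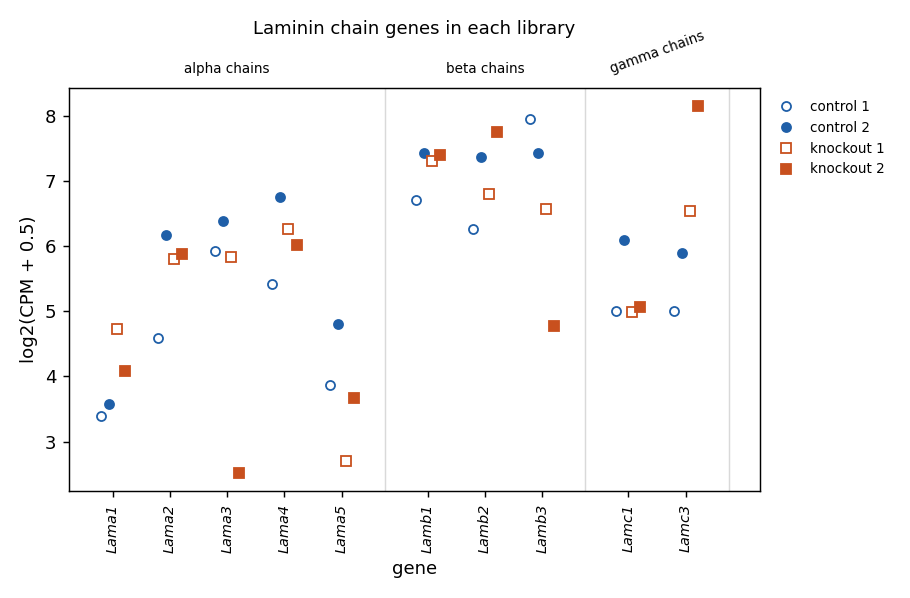
Level of each of the 10 laminin genes (horizontal axis, grouped by chain) as log2(CPM + 0.5) (vertical axis), with 1 point per library. Lamc3 is highest in knockout 2 (282 CPM), where Lama3 (5.26 CPM) and Lamb3 (26.8 CPM) are lowest.

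Of the beta chains, Lamb3, which joins the epithelial anchoring trimer, was lower in both knockouts. Its gene lies on chromosome 1 from 193207699 to 193343878 on the plus strand. It stood at 247 and 172 CPM in controls 1 and 2 and at 94.3 and 26.8 CPM in knockouts 1 and 2. The log2 fold change was -1.79 (SE 0.60), a 3.46-fold lower level (adjusted p = 0.212 in edgeR and 0.0214 in DESeq2). It was -2.97 without knockout 1 and -1.15 without knockout 2. Its alpha partner Lama3 had 60.2 and 83.2 CPM in the controls and 56.3 and 5.26 CPM in the knockouts. Knockout 1 was close to control 1, and knockout 2 was far below the rest. The value of -1.22 (SE 0.92, edgeR adjusted p = 0.563) was -3.77 without knockout 1 (adjusted p = 0.0312) and -0.35 without knockout 2. In 5 of 10 dental epithelium markers both knockouts were below both controls and in 0 above, beside 24.9% and 25.8% of all genes tested. None was at 0. The median of their log2 levels, centred per gene, was 0.99 and 0.08 in controls 1 and 2. In knockouts 1 and 2 this median was 0.13 and -0.77, so knockout 1 did not lie below control 2. It was highest in control 1, as was Lamb3, whereas Lama3 was highest in control 2. The summed level of these markers, most of it Ambn, was 22376 to 62041 CPM in the controls and 34573 to 41496 CPM in the knockouts. Without Ambn it was 4245 to 9573 CPM against 476 to 3639 CPM, with knockout 2 lowest. Their part in Lama3, Lamb3, Itgb6, Itga6 and Itgb4 was not tested.

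Lamb1, Lamb2, Lama2 and Lama4, chains of mesenchymal, vascular and muscle basement membranes, overlapped between the groups. Lamb1 was at 104 and 171 CPM in the controls and at 158 and 167 CPM in the knockouts (0.24, and -0.11 without control 1). Lamb2, a chain of synapses, kidney and mature vessels, was at 76.1 and 164 CPM against 111 and 213 CPM (0.44, -0.03 without control 1 and -0.11 without knockout 2). Lama2, the chain of muscle and nerve that is lost in a congenital muscular dystrophy, had 23.6 and 71.6 CPM against 55.4 and 58.4 CPM (0.26, and -0.37 without control 1). Lama4, the chain of vessel walls, had 42.2 and 107 CPM against 76.5 and 64.3 CPM, and its log2 fold change of -0.08 became 0.69 without control 2 and 0.04 without knockout 2. In each of these 4 genes control 1 had the lowest level of all libraries. The 2 alpha chains left were apart in opposite directions. Lama1, the chain of early embryonic and epithelial basement membranes, was higher, at 9.99 and 11.4 CPM in the controls and 26.1 and 16.5 CPM in the knockouts (0.99, SE 0.46, edgeR adjusted p = 0.330). Lama5, the broad chain of mature epithelia and vessels, was lower, at 14.2 and 27.3 CPM against 6.03 and 12.2 CPM (-1.19, SE 0.57, edgeR adjusted p = 0.350). Its value was -0.67 without control 2, -0.77 without knockout 1 and -1.78 without knockout 2. Of 9 endothelial markers, 5 were lower in both knockouts and 0 higher, beside 24.9% and 25.8% of all genes tested. None of the 9 was at 0, their summed level was 811 to 1326 CPM in the controls and 650 to 686 CPM in the knockouts, and their part in Lama5 was not tested.

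To compare levels between genes, CPM were divided by the exon length of each gene in kilobases. On that scale Itgb1 was the most abundant member in both groups, with a mean of 97.6 ± 53.7 CPM per kb in the controls and 187 ± 60.3 in the knockouts (SD, n = 2 each). In the controls it was followed by Lamb3 (31.7 ± 8.09), Itga11 (25.4 ± 20.7), Itga5 (23.8 ± 2.12) and Lamb2 (19.7 ± 10.2). The neighbours in this order from Lamb3 to Lamb2 did not differ beyond their spread. In the knockouts the places after Itgb1 went to Itga11 (33.3 ± 22.9), Lamc3 (30.7 ± 22.0), Lamb2 (26.7 ± 11.9) and Itga5 (22.7 ± 1.95), which did not differ beyond their spread either. Lamb3 was in place 8 there, at 9.15 ± 7.22 CPM per kb, and Itgb2 went from place 7 (17.2 ± 10.3) to place 13 (3.75 ± 1.97). Itgax was the lowest of the 36 in both groups. The lengths join all annotated exons of a gene, so genes with long rare exons, such as Itga1 with 18599 exon bases, can come out too low.

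**Figure D5:**
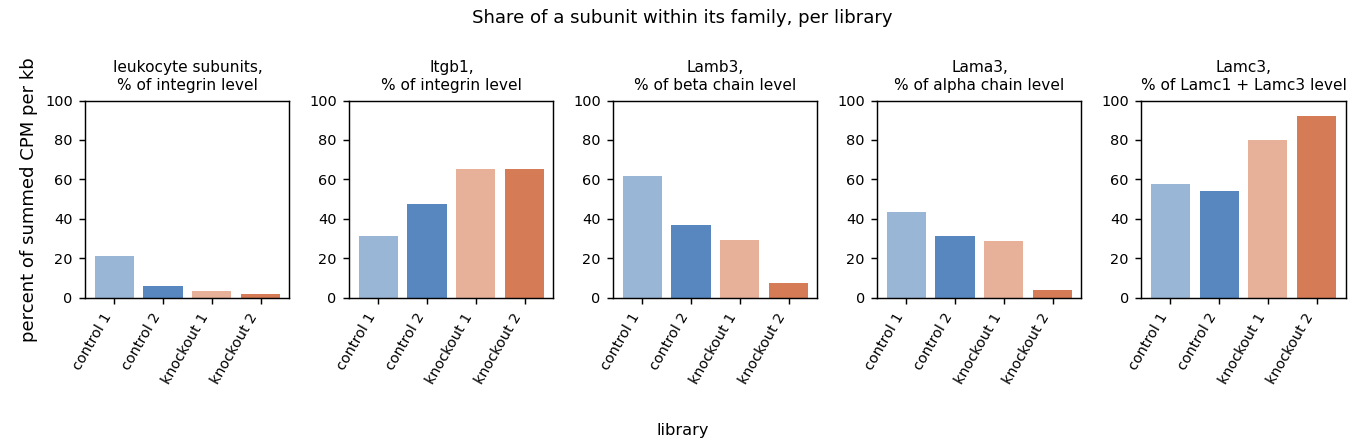
Share of a gene or group in the summed CPM per kb of its family (vertical axis, percent, from 0 to 100) in each of the 4 libraries (horizontal axis, 1 bar per library). Leukocyte subunits take 21.4% of the integrin level in control 1 and 1.94% in knockout 2, and Lamc3 takes 92.1% of the level of Lamc1 and Lamc3 in knockout 2.

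Shares within a library do not depend on its scaling. Leukocyte subunits made up 21.4% and 6.01% of the summed integrin level per kb in controls 1 and 2, but 3.35% and 1.94% in knockouts 1 and 2. Itgb1 made up 31.3% and 47.3% in the controls, but 65.1% and 65.4% in the knockouts. Both shares were apart between the groups, and that of the leukocyte subunits differed more between the controls than between control 2 and the knockouts. Among the gamma chains, Lamc3 took 57.7% and 54.2% of the level of Lamc1 and Lamc3 in the controls, but 80.1% and 92.1% in the knockouts. Among the 3 beta chains, Lamb3 took 62.0% and 37.0% in the controls, but 29.4% and 7.23% in the knockouts. Lama3 took 43.7% and 31.5% of the alpha chain level in the controls, but 28.8% and 4.02% in the knockouts. With 2 libraries a group, a two-sided exact permutation test could not reach a p below 0.333, so none was run.

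Genes that carry integrin signals inside the cell lay on both sides of the controls. Of 28 tested, both knockouts lay below both controls in 6 and above them in 9, where 24.9% and 25.8% of all genes tested did. The median log2 fold change was 0.07, and none passed edgeR's test with all libraries. DESeq2 called 3 lower and 0 higher, beside 5.18% and 2.47% of the genes to which it gave an adjusted p. The 5 with the smallest p included 3 genes whose products are well known from blood cells. Ptk2b encodes the kinase PYK2, which relates to focal adhesion kinase, and stood at 170 and 84.7 CPM in the controls and at 25.9 and 10.2 CPM in the knockouts (-2.81, SE 0.58, adjusted p = 0.152 in edgeR and 3.5e-05 in DESeq2). Fermt3, the kindlin of leukocytes and platelets that activates beta2 and beta3 integrins, had 146 and 106 CPM against 30.6 and 11.7 CPM (-2.57, SE 0.53, edgeR adjusted p = 0.152). Parvg, the parvin of leukocytes, had 93.1 and 28.4 CPM against 8.95 and 2.12 CPM (-3.45, SE 0.85, edgeR adjusted p = 0.165). These are the 3 genes that DESeq2 called, with adjusted p-values of 7.3e-05 for Fermt3 and 5.7e-05 for Parvg. Without knockout 1 each passed edgeR's test, with -3.63 for Ptk2b (adjusted p = 0.0385), -3.42 for Fermt3 (0.0366) and -4.83 for Parvg (0.0351). For Parvg, leaving out control 1 gave -2.41, control 2 gave -4.14 and knockout 2 gave -2.76. The other two were Tln1, whose product talin switches integrins on, at 233 and 224 CPM against 142 and 158 CPM, and Bcar1, an adhesion adaptor, at 39.1 and 36.3 CPM against 50.5 and 79.6 CPM. Fermt2, the kindlin of most other cells, stood at 52.5 and 119 CPM in the controls and at 131 and 149 CPM in the knockouts. Its log2 fold change was 0.71 (SE 0.44), and it was 0.21 without control 1 and 1.37 without control 2. Fermt2 was named after its values were seen.

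Of 26 genes for partners of laminins in the basement membrane 25 were tested. In the knockouts 8 lay below and 5 above the controls, beside 24.9% below and 25.8% above among all genes tested. The median log2 fold change was -0.33, and -0.66 without control 1. Col18a1 and Col15a1, a pair of related collagens of the basement membrane zone, were lower in both knockouts. Col18a1 was at 124 and 157 CPM in the controls and at 38.6 and 43.6 CPM in the knockouts (-1.77, adjusted p = 0.150 in edgeR and 0.0013 in DESeq2). Col15a1 was at 34.8 and 71.4 CPM against 8.08 and 1.68 CPM (-3.44, adjusted p = 0.163 in edgeR and 3.0e-05 in DESeq2). It passed edgeR's test without knockout 1 (-4.98, adjusted p = 0.0257) and was -2.72 without knockout 2. Col4a1, a chain of the main network collagen, had 343 and 547 CPM against 204 and 105 CPM (-1.52, SE 0.45, adjusted p = 0.187 in edgeR and 0.0205 in DESeq2). Nid2, a nidogen that links laminin to that network, was higher, at 50.0 and 59.0 CPM against 110 and 124 CPM (1.11, SE 0.33, edgeR adjusted p = 0.187). Frem1, which encodes an adhesion protein of embryonic skin, was higher too, at 23.8 and 53.2 CPM against 90.0 and 121 CPM. Its log2 fold change was 1.45 (SE 0.47, edgeR adjusted p = 0.202), and it was 0.96 without control 1 and 2.10 without control 2.

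Of 21 ligands of integrins other than laminins, 20 were tested. In both knockouts 4 lay below the controls and 1 above, beside 24.9% below and 25.8% above among all genes tested. The median log2 fold change was -0.22, but -0.83 without control 1 and 0.45 without control 2. Tnc, the gene of tenascin C, a ligand of the alpha9 integrin, stood at 269 and 403 CPM in the controls and at 56.5 and 61.3 CPM in the knockouts (-2.51, SE 0.37, adjusted p = 0.145 in edgeR and 1.5e-06 in DESeq2). Icam2, a ligand of the integrin made by Itgal and Itgb2 on leukocytes and endothelium, had 164 and 36.7 CPM against 20.8 and 10.7 CPM (-2.67, SE 0.74, adjusted p = 0.175 in edgeR and 0.00106 in DESeq2). It was -1.27 without control 1 and -3.44 without control 2. Npnt, the gene of nephronectin, a ligand of the alpha8 integrin, had 45.5 and 60.8 CPM against 28.1 and 15.0 CPM (-1.30, SE 0.44, edgeR adjusted p = 0.214). Cdh1, the epithelial cadherin that the integrin of Itgae binds, had 19.7 and 15.7 CPM against 8.34 and 3.36 CPM (-1.60, SE 0.59, edgeR adjusted p = 0.240). Its value was -2.40 without knockout 1 and -1.09 without knockout 2. Emilin1, a ligand of alpha4 and alpha9 integrins with beta1, was the higher one, at 200.02 and 256 CPM against 300.0 and 437 CPM (0.69, SE 0.36, edgeR adjusted p = 0.383).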

How the data were processed

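The authors deposited 1 table of raw counts, as whole numbers, with a row for each Ensembl gene and a column for each of 4 libraries. Per the labels' protocols, reverse transcription used oligo-dT priming with template switching, and the cDNA was amplified in 14 PCR cycles, and 50 ng were fragmented with a transposase kit, which marks neither strand nor molecules. Reads of overlapping genes on opposite strands thus cannot be told apart. The tools listed in the submitters' processing notes are featureCounts 2.0.1, Bowtie2 2.3.5.1 and Trim Galore 0.6.6, with the build GRCm38. Which annotation release was counted, and how shared exons were handled, is not given in the sources used here. GENCODE M21 (GRCm38) gave symbols, coordinates and exon lengths for 55227 of 55487 IDs.

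Genotypes were compared by the two-sided quasi-likelihood test of edgeR 4.0.16 in R 4.3.3, with TMM factors, genotype as the only term, filterByExpr (17128 genes) and Benjamini-Hochberg adjustment over all genes, with a threshold of 0.05. CPM use TMM-scaled library sizes. The SE is the absolute log2 fold change divided by the square root of F. Alternatives were DESeq2 1.42.0 (18528 genes with an adjusted p), limma-voom (limma 3.58.1), RLE and upper-quartile scaling, no filter, a filter with a minimum count of 50, a replicate block, and leaving out each library with the same genes tested. A group left with 1 library is assumed to vary like the other. Members and gene lists were chosen with earlier results of these data known. Of each of the 3 lists of related genes, the 5 tested genes with the smallest p are named.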

Additional observations from a re-analysis of the deposited data

How the results depend on the processing

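Scaling by RLE or upper quartile and the stricter filter left edgeR at 0 calls, as did limma-voom, and no member changed sign under either scaling. The same 34 members kept their place as apart or overlapping under both scalings. DESeq2 called 458 genes higher and 959 lower, among them 1 and 5 members. Without the low-count filter edgeR called 449 and 1005, among them 1 and 5 members, but its prior degrees of freedom were infinite, so a gene's own spread did not enter its p. With the replicate block, edgeR called 59 higher and 185 lower, with 1 member lower (Itga4, adjusted p = 0.0438). Of the named genes of the 3 related lists, Ptk2b (0.0376), Fermt3 (0.0426), Parvg (0.0376) and Tnc (0.0401) passed with it. The labels tie the replicate numbers to no shared source, and same-numbered deviations from the group means correlated at 0.145 across genes. With 1 library left out, edgeR called 0 to 55 genes higher and 0 to 230 lower, and 0 to 1 and 0 to 2 members. All calls came without knockout 1, where the members were Itga4, Lama3 and Lamc3 and those of the related lists were Ptk2b, Fermt3, Parvg and Col15a1. Medians ranged over these fits from -2.63 to -1.16 for leukocyte integrins, -1.24 to -0.27 for matrix-binding integrins, -0.50 to 0.65 for laminins, -0.66 to -0.10 for basement membrane partners and -0.83 to 0.45 for other ligands. In these fits 23 members kept their sign and 11 did not. The ranges of the latter were -1.38 to 0.017 for Itga1, -1.93 to 0.50 for Itga10, -0.57 to 1.60 for Itga11, -0.19 to 0.021 for Itga5, -2.26 to 0.24 for Itga7, -2.00 to 0.66 for Itga8 and -1.47 to 0.90 for Itgad. Among laminins they were -0.37 to 1.22 for Lama2, -0.64 to 0.69 for Lama4, -0.11 to 0.60 for Lamb1 and -0.11 to 1.05 for Lamb2. Lama4 was also 0.055 with limma-voom and 0.060 with the replicate block. The cause was not tested.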
